A study of Mus musculus with 24 samples.

Results

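Mfsd2a and 8 genes of caveolae (Cav1, Cav2, Cavin1, Cavin2, Cavin3, Ehd2, Ehd4 and Pacsin2) were followed in endothelial cells sorted from normal mouse hindbrain and from mouse medulloblastomas of a Shh and a Wnt model. The genes were taken by their symbol in the annotation of the array platform. All 9 were found among the 22180 genes measured, each on 1 probe set that names no other gene, and all 9 were tested because no filter on low values was applied. Expression was read on Affymetrix arrays, and the values are log2 expression values as the authors deposited them. Values after ± are standard deviations (SD, n = 8) beside a mean and standard errors (SE) beside a difference, and differences of log2 values are called log2 changes.

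The labels call the 8 arrays of each of the 3 groups biological replicates, and all mice had a mixed strain background. The hindbrain group came from wild type adult mice. The Shh tumours came from mice with the genotype Ptch+/-; Ink4c-/-, for which no Cre is named. The Wnt tumours came from mice that carried Blbp-Cre, with Cre under control of Blbp, a gene of radial glia and neural progenitors, together with Ctnnb1 +/Exon3 flox, Trp53 flox/flox and Pik3ca +/flox. The age of the tumour mice is not given in the sources used here, and genotype, tumour type and age cannot be told apart. Papain was used to dissociate the tissue, and a magnetic sort used antibodies against Cd144 and Cd105, endothelial surface proteins that Cdh5 and Eng encode.

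Mfsd2a is a membrane transporter that carries lysophosphatidylcholine with bound long-chain fatty acids, docosahexaenoic acid among them, into the brain. In the endothelium of the blood-brain barrier it is also known as a brake on vesicle traffic, since mice that lack it move tracers across the vessel wall in vesicles. Caveolae are flask-shaped pits of the plasma membrane that can carry cargo across an endothelial cell. Caveolins form the pit inside the membrane, cavins coat it from the cytoplasm, EHD ATPases hold its neck at the surface, and the F-BAR protein Pacsin2 bends the membrane. Brain endothelium is known for few such vesicles compared with endothelium elsewhere.

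The sort antigens were measured at high level in every group: the mean log2 value of Cdh5 was 12.82 ± 0.087 on hindbrain arrays, 12.89 ± 0.14 on Shh arrays and 12.41 ± 0.35 on Wnt arrays, and that of Eng was 12.83 ± 0.074, 12.71 ± 0.17 and 12.09 ± 0.31. The mean of 16 endothelial markers ran from 11.12 to 11.46 for hindbrain, from 10.99 to 11.49 for Shh and from 9.65 to 10.88 for Wnt arrays, and the Wnt replicates 8 and 1 were lowest. Of these markers, 14 of 16 were lower in Wnt than in hindbrain, with a median log2 change of -0.89. Markers of other cells moved too. Against hindbrain, fibroblast markers were higher in Wnt for 9 of 10 genes. In Shh 9 were higher and 1 lower (list mean 7.68 to 8.36 in hindbrain, 9.06 to 10.20 in Shh, 9.36 to 10.70 in Wnt). Pericyte markers were lower in Wnt for 7 of 11. In Shh 2 of 11 were lower and 1 higher (9.70 to 10.80, 10.02 to 10.49 and 8.16 to 9.97). Microglial markers were lower in Wnt for 11 of 11 measured. In Shh 10 of 11 were lower (10.34 to 11.36, 7.84 to 10.34 and 7.55 to 9.36). Of all genes, 22.0% were called lower and 23.2% higher in Wnt, beside 18.9% lower and 18.9% higher in Shh. Smooth muscle markers were lower in Shh for 5 of 7 and higher for 1, and lower in Wnt for 3 of 7 (9.16 to 9.79, 8.01 to 8.63 and 8.46 to 9.29), so that Shh had the lowest list mean. Markers of granule neuron precursors, from which Shh tumours arise, were higher in Shh for 9 of 10 (6.43 to 6.72, 7.50 to 9.23 and 6.67 to 7.22). None of the markers of the endothelial, fibroblast, pericyte, smooth muscle and microglial lists had a group mean at or below 5.24, the 95th percentile of the means of 92 control probe sets for non-mouse ERCC sequences. Each sample is a bulk of sorted cells, so fewer cells of a type and less RNA per cell cannot be told apart. Except where a value relative to the endothelial markers is given, the part that these shifts have in the results below was not tested.

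Mfsd2a was high in hindbrain and Shh endothelium and low, to a widely differing extent, in Wnt endothelium. On hindbrain arrays its log2 value (probe set 17429632) had a lowest value of 11.93, a median of 12.10 and a highest value of 12.27. The Shh arrays ran from 12.08 through a median of 12.45 to 12.68. The 8 Wnt arrays, by replicate number, read 8.94, 11.00, 9.42, 10.56, 9.74, 7.07, 8.47 and 8.56. All Wnt arrays thus lay below all hindbrain and all Shh arrays, while hindbrain and Shh overlapped. Set against the hindbrain mean on the linear scale, the highest Wnt array (replicate 2) held 46.6% of the hindbrain level and the lowest (replicate 6) held 3.05%.

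The mean fell by 2.89 ± 0.35 on the log2 scale from hindbrain (12.11 ± 0.13) to Wnt (9.22 ± 1.25), a 7.40-fold lower level (limma, Benjamini-Hochberg adjusted p over all genes = 1.48e-07). Between Shh (12.41 ± 0.24) and Wnt the log2 change was -3.19 ± 0.35, a 9.14-fold lower level (adjusted p = 6.49e-08). Under an exact permutation test of the difference in means over the 12870 splits of 16 arrays, both comparisons gave p = 0.000155 (two-sided), the smallest value such splits can give. Relative to the endothelial marker mean of each array the fall from hindbrain to Wnt was smaller but remained past the threshold, at -1.93 ± 0.31 (adjusted p = 1.98e-06). Among all genes, 0.298% had a log2 change at or below that of Mfsd2a in Wnt against hindbrain.

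From hindbrain to Shh the log2 change of Mfsd2a was 0.30 ± 0.35, with a 95% interval from -0.41 to 1.02, and it did not pass the test (adjusted p = 0.524). That standard error is shared by all 3 comparisons, because the fit takes 1 estimate of the spread from all 24 arrays, the Wnt arrays included. In a fit of the hindbrain and Shh arrays alone the same difference had a standard error of 0.095 and an adjusted p of 0.0167, and the exact permutation test of the means gave p = 0.00808. The call for a higher level in Shh therefore depends on whether the Wnt arrays enter the estimate of the spread.

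**Figure D1:**
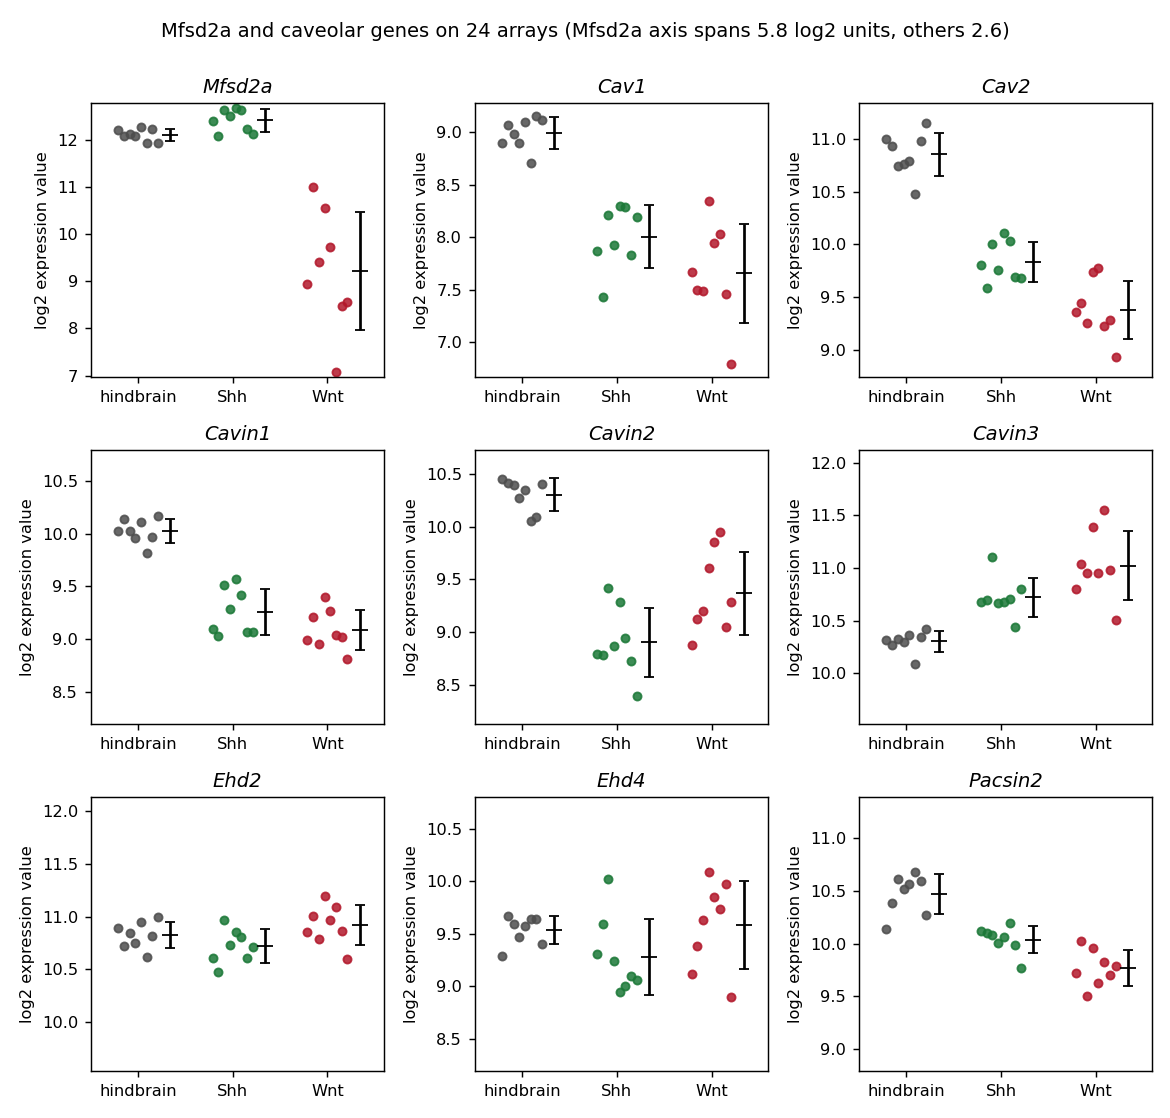
Log2 expression values (vertical axis) of Mfsd2a and the 8 caveolar genes on each array, by group (horizontal axis, 8 arrays each, in order of replicate number); black marks give the mean and SD. The Wnt arrays of Mfsd2a spread from 7.07 to 11.00, all below the hindbrain and Shh arrays, while Cav1, Cav2, Cavin1 and Cavin2 are lower in both tumour groups and Cavin3 is higher.

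The spread of Mfsd2a within the Wnt group was itself unlike that of the hindbrain group. The SD of its log2 values was 9.79 times as large in Wnt (1.25) as in hindbrain (0.13). The mean absolute deviation from the group median was 0.96 in Wnt and 0.098 in hindbrain, and the difference passed an exact permutation test run on all genes (p = 0.000155, adjusted p = 0.0305), as it did for 0.509% of all genes. The adjusted call was lost whichever of the 16 arrays was left out, with an exact p from 0.0014 to 0.00186 and a p adjusted over all genes from 0.192 to 0.535. In those exact permutation tests 0 genes of the whole array passed the adjustment, and 1824 to 2294 had an unadjusted p under 0.05. Against Shh, where the mean absolute deviation was 0.20, the raw exact p was 0.00218 and the adjusted p was 0.221, so that difference failed the correction. In Wnt, 99.5% of all genes had an SD at or below that of Mfsd2a, against 23.8% in hindbrain and 60.3% in Shh. None of the 8 caveolar genes passed this test of spread in any comparison after the adjustment over all genes. Before adjustment 2 had an exact p under 0.05, Ehd4 in Wnt (SD 0.42) against hindbrain (SD 0.13, p = 0.0287) and Cavin1 in Shh (SD 0.22) against hindbrain (SD 0.11, p = 0.0317).

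The promoter of Mfsd2a is shown because this gene had the largest change of the 9. TCF/LEF factors are the DNA-binding end of canonical Wnt signalling, and their core motif was searched in it. The window holds the 250 bases before the start of the RefSeq transcript, chr4:122961189-122961438 on the minus strand of GRCm38.p6, written 5′ to 3′ with the letters of the TCF/LEF core in capitals. The build behind the array design is not given in the sources used here, and the coordinates are those of RefSeq.
Mfsd2a promoter: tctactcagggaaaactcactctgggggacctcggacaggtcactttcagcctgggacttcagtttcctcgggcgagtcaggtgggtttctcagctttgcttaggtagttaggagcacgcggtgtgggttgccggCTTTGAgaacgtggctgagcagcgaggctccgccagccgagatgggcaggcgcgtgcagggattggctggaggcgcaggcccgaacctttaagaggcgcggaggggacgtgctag
The core was searched as CTTTGA on either strand (TCAAAG on the other), and its first base lies 115 bases before the start. This was 1 of 12 windows of the 8 genes that have one in the RefSeq table (Cavin3 is not among them), and 13.8% of all 32851 promoter windows of the same length hold the core. The match is a description of letters and says nothing of binding in these cells.

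Of the caveolar genes, the core caveolins and the cavins 1 and 2 were lower in both tumour groups. In Wnt against hindbrain, 7 of the 9 genes were called, 6 lower and 1 higher, beside 45.3% of all genes called (22.0% lower and 23.2% higher). The groups did not overlap for 7 of 9, beside 20.0% of all genes. In Shh against hindbrain, 6 of 9 were called, 5 lower and 1 higher, beside 37.8% of all genes (18.9% lower and 18.9% higher), and 5 of 9 did not overlap, beside 12.7%. In Wnt against Shh, 5 of 9 were called, 3 lower and 2 higher, beside 35.8% of all genes (17.8% lower and 18.0% higher), and Mfsd2a was the single gene of the 9 whose groups did not overlap, beside 10.1%. The median log2 change over the 8 caveolar genes was -0.82 in Wnt and -0.60 in Shh against hindbrain and 0.015 between the tumours, where the medians of all genes were -0.023, -0.020 and -0.0019. The tumour comparisons share the hindbrain arrays and are set side by side without a test of their likeness.

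**Figure D2:**
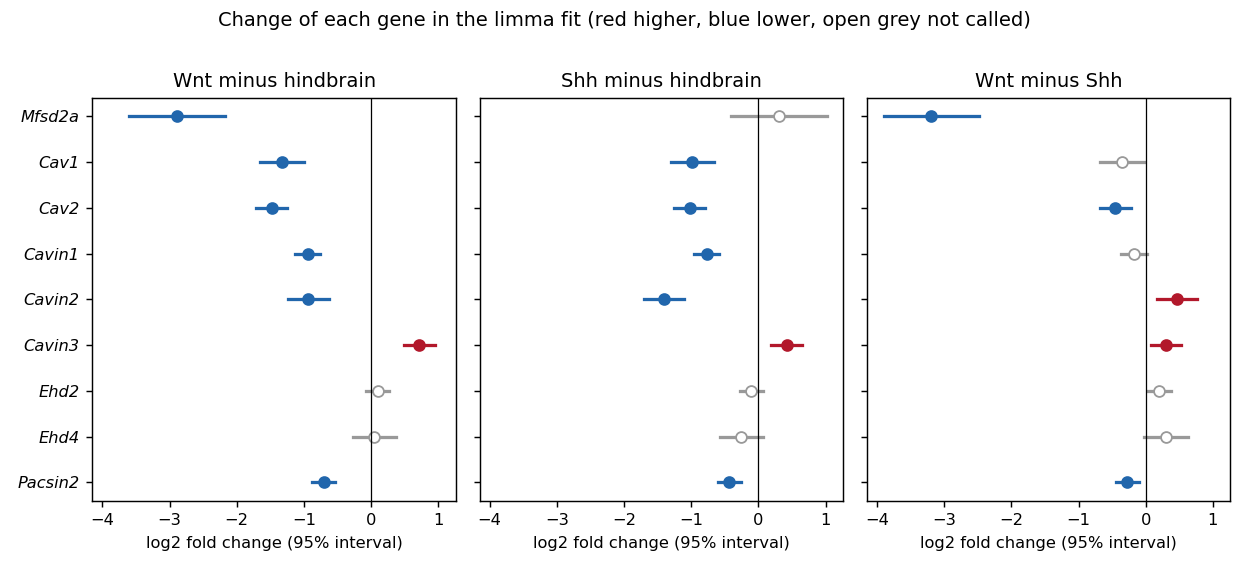
Log2 changes (horizontal axis) of the 9 genes (vertical axis) with 95% intervals from the limma fit, in 3 comparisons; red points were called higher, blue lower and open grey points were not called. Mfsd2a has a log2 change of -2.89 in Wnt against hindbrain with an interval from -3.60 to -2.18, while its interval in Shh against hindbrain crosses 0.

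Cav1, the principal caveolin of endothelium, without which caveolae do not form there, was lower in both tumours (probe set 17456161). Its log2 values ran from 8.70 to 9.15 (median 9.03) on hindbrain arrays, from 7.43 to 8.30 (median 8.06) on Shh arrays and from 6.80 to 8.35 (median 7.59) on Wnt arrays. Both tumour groups lay wholly below hindbrain and overlapped each other. The log2 change was -1.33 ± 0.16 in Wnt (adjusted p = 1.33e-07) and -0.98 ± 0.16 in Shh (adjusted p = 2.47e-05) against hindbrain. Between the tumours it was -0.35 ± 0.16 and did not pass the test (adjusted p = 0.0895), with a 95% interval from -0.68 to -0.023. Without Shh replicate 2 that difference was -0.43 (adjusted p = 0.0316), and without Wnt replicate 4 it was -0.45 (adjusted p = 0.0189).

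Cav2, the caveolin that joins Cav1 in mixed oligomers, followed the same order (probe set 17456152). Its log2 values lay between 10.48 and 11.15 (median 10.86) in hindbrain, between 9.58 and 10.11 (median 9.78) in Shh and between 8.93 and 9.78 (median 9.32) in Wnt. No tumour array reached the lowest hindbrain array, and the tumour groups overlapped each other. The log2 change against hindbrain was -1.48 ± 0.11 in Wnt, a 2.79-fold lower level (adjusted p = 6.98e-11), and -1.03 ± 0.11 in Shh, a 2.04-fold lower level (adjusted p = 1.09e-07). Cav2 was also lower in Wnt than in Shh, by a log2 change of -0.45 ± 0.11 (adjusted p = 0.00227).

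The promoters of Cav2 and Cav1 are shown because the genes lie side by side and were lower in the same groups. Their starts are 25150 bases apart on the plus strand of chromosome 6, with no other gene start between them in the RefSeq table of GRCm38.p6. The windows are chr6:17280935-17281184 for Cav2 and chr6:17306085-17306334 for the first of the RefSeq starts of Cav1, both 250 bases long and written 5′ to 3′. Neither holds the TCF/LEF core, so no letter is in capitals.
Cav2 promoter: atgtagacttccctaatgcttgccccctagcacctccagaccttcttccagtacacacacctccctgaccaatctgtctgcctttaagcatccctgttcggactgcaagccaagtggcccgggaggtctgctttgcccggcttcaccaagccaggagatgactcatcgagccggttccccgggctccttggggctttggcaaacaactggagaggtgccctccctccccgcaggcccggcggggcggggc
Cav1 promoter: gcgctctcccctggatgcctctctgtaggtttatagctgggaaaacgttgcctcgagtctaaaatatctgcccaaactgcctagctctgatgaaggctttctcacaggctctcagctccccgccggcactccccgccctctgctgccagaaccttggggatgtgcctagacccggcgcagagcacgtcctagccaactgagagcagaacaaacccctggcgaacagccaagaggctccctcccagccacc
Both windows hold a GC box, searched as GGGCGG on either strand, as do 7 of the 12 windows of these genes and 32.7% of all promoter windows. The windows of Cavin1 (chr11:100970618-100970867 and chr11:100970616-100970865) overlap almost wholly, so the same GC box is counted in both. The forkhead motif GTAAACA was in none of the 12, and it is in 3.17% of all windows.

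Cavin1, the cavin that caveolae need for their shape, was lower in both tumours (probe set 17269748). Its log2 values ran from 9.82 to 10.17 (median 10.02) in hindbrain, from 9.02 to 9.57 (median 9.19) in Shh and from 8.81 to 9.40 (median 9.03) in Wnt. The hindbrain arrays stood apart from both tumour groups, which overlapped. Its log2 change was -0.94 ± 0.092 in Wnt (adjusted p = 5.09e-09) and -0.77 ± 0.092 in Shh (adjusted p = 3.63e-07). Between the tumours the log2 change was -0.17 ± 0.092, with a 95% interval from -0.36 to 0.017 (adjusted p = 0.154).

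Cavin2, a cavin that binds phosphatidylserine and helps to shape the caveola, was lowest in Shh rather than in Wnt (probe set 17212719). Its log2 values lay between 10.06 and 10.46 (median 10.37) in hindbrain, between 8.39 and 9.42 (median 8.83) in Shh and between 8.88 and 9.95 (median 9.24) in Wnt. Neither tumour group overlapped hindbrain. The log2 change was -1.41 ± 0.15 in Shh, a 2.65-fold lower level (adjusted p = 5.53e-08), and -0.94 ± 0.15 in Wnt, a 1.92-fold lower level (adjusted p = 8.46e-06). The difference between the tumours was called, with Wnt above Shh by a log2 change of 0.47 ± 0.15 (adjusted p = 0.0142), though single arrays overlapped. The means of the smooth muscle list stood in the same order (9.58 in hindbrain, 8.86 in Wnt, 8.44 in Shh). Within groups, Pearson's r between Cavin2 and that list mean came to -0.159 for Wnt, -0.0067 for Shh and 0.370 for hindbrain arrays. No value among them passed the adjusted exact permutation test. The part of smooth muscle cells in this result was not tested.

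Cavin3, which binds Cavin1 and links caveolae to signalling proteins, moved the other way from the other cavins (probe set 17494503). Its log2 values ran from 10.08 to 10.42 (median 10.32) in hindbrain, from 10.44 to 11.10 (median 10.69) in Shh and from 10.51 to 11.55 (median 10.97) in Wnt. Every tumour array was above every hindbrain array, in Shh by a narrow margin. The log2 change was 0.72 ± 0.11 in Wnt (adjusted p = 5.63e-06) and 0.42 ± 0.11 in Shh (adjusted p = 0.0038). Wnt was above Shh by a log2 change of 0.30 ± 0.11 (adjusted p = 0.034), a call that was lost without Wnt replicate 4 (0.25, adjusted p = 0.0768), without Wnt replicate 6 (0.23, adjusted p = 0.0833) and without Shh replicate 1, 4, 5 or 7 (lowest value 0.26, adjusted p = 0.0732, without replicate 7).

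The EHD ATPases, which sit at the neck of the caveola, did not pass the test in any of the 3 comparisons. Ehd2 (probe set 17486807), the EHD protein best known at caveolae, had log2 values from 10.61 to 10.99 (median 10.83) in hindbrain, from 10.47 to 10.97 (median 10.72) in Shh and from 10.60 to 11.20 (median 10.92) in Wnt. All 3 groups overlapped. Its log2 change was 0.097 ± 0.083 in Wnt against hindbrain (adjusted p = 0.373, 95% interval -0.074 to 0.27), -0.10 ± 0.083 in Shh against hindbrain (adjusted p = 0.345) and 0.20 ± 0.083 in Wnt against Shh (adjusted p = 0.0614). The last was called without Shh replicate 3 (0.24, adjusted p = 0.0283) or without Wnt replicate 8 (0.25, adjusted p = 0.0172).

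Ehd4 (probe set 17390066), a relative of Ehd2 that also works in endosomal traffic, had log2 values from 9.29 to 9.67 (median 9.58) in hindbrain, from 8.95 to 10.02 (median 9.17) in Shh and from 8.90 to 10.09 (median 9.68) in Wnt. The tumour arrays spread to both sides of the hindbrain arrays. Its log2 change was 0.048 ± 0.16 in Wnt against hindbrain (adjusted p = 0.837, 95% interval -0.27 to 0.37), -0.25 ± 0.16 in Shh against hindbrain (adjusted p = 0.215) and 0.30 ± 0.16 in Wnt against Shh (adjusted p = 0.143). Without Shh replicate 3, the highest of its group, the difference between the tumours was 0.41 (adjusted p = 0.0287), and without Wnt replicate 8, the lowest of its group, it was 0.40 (adjusted p = 0.0367).

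Pacsin2, the membrane-bending protein, fell in a graded way from hindbrain to Shh to Wnt (probe set 17319830). Its log2 values ran from 10.14 to 10.68 (median 10.54) in hindbrain, from 9.77 to 10.19 (median 10.07) in Shh and from 9.50 to 10.03 (median 9.75) in Wnt. Wnt lay wholly below hindbrain, and Shh overlapped both. The log2 change was -0.70 ± 0.085 in Wnt (adjusted p = 1.6e-07) and -0.43 ± 0.085 in Shh (adjusted p = 2.39e-04) against hindbrain, and -0.27 ± 0.085 in Wnt against Shh (adjusted p = 0.0136). The microglial list mean declined in the same order (hindbrain 10.82, Shh 9.23, Wnt 8.66). Pearson's r of Pacsin2 with that mean reached 0.792 across hindbrain arrays, beside 0.341 for Shh and 0.522 for Wnt. The fibroblast list mean ran in the reverse order (hindbrain 8.08, Shh 9.41, Wnt 10.17). With it, Pacsin2 had r -0.823 in hindbrain, -0.673 in Shh and 0.624 in Wnt. None of these r passed the adjusted exact permutation test. How far microglia or other cells account for the fall of Pacsin2 was not tested.

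**Figure D3:**
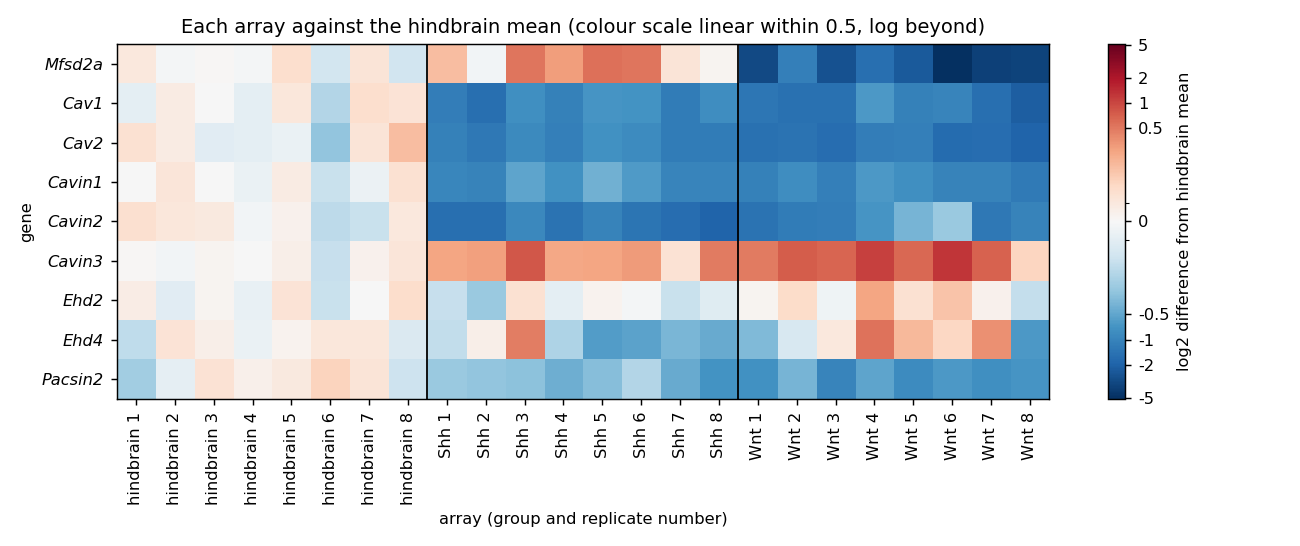
Difference of each array (horizontal axis) from the hindbrain mean of each gene (vertical axis) in log2 units, blue below and red above, on a colour scale that is linear within 0.5 and logarithmic beyond. The Mfsd2a row is deep blue in the Wnt arrays, the rows of Cav1, Cav2, Cavin1 and Cavin2 are blue in both tumour groups, and the Cavin3 row is red in both.

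Since the endothelial markers were lower in Wnt, the Wnt changes were also taken relative to the endothelial marker mean of each array, a scaling under which the median of all genes rose by a log2 change of 0.94. Mfsd2a (-1.93), Cav2 (-0.52 ± 0.13, adjusted p = 5.7e-04) and Cav1 (-0.37 ± 0.13, adjusted p = 0.0103) then stayed lower in Wnt than in hindbrain. Cavin1 (0.018 ± 0.13, adjusted p = 0.897), Cavin2 (0.023 ± 0.14, adjusted p = 0.877) and Pacsin2 (0.26 ± 0.17, adjusted p = 0.152) lost the call and changed sign. Cavin3 (1.68 ± 0.13), Ehd2 (1.06 ± 0.13) and Ehd4 (1.01 ± 0.16) were called higher on this scale. So were most genes, with 20471 called and 96.8% of them higher, and Ehd2 and Ehd4 lay near the median of all genes. Against Shh, Mfsd2a was the single gene of the 9 that was lower in Wnt on this scale (-2.29 ± 0.31, adjusted p = 2.37e-07), and the 8 caveolar genes were called higher, beside a median of 0.90 over all genes and 20271 genes called, 97.9% of them higher. The Shh changes against hindbrain moved little, from -1.34 for Cavin2 to 0.48 for Cavin3, except that Pacsin2 (-0.37 ± 0.17, adjusted p = 0.157) lost its call.

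Setting Mfsd2a against each caveolar gene on the same array removes any scale that the values of an array share. Log2 Mfsd2a minus log2 Cav1 averaged 3.12 on hindbrain arrays, 4.41 on Shh arrays and 1.56 on Wnt arrays. Such differences between probe sets carry no meaning as levels, but their change between groups shows how far the genes moved apart. From hindbrain to Wnt, Mfsd2a fell more than each of the 8 caveolar genes, from -1.41 against Cav2 (adjusted exact p = 0.00289) to -3.61 against Cavin3 (adjusted exact p = 1.74e-04). The same test was passed by 98.7% of all genes, so this is no mark of the caveolar genes. From hindbrain to Shh it moved up relative to 7 of 8, by 0.41 against Ehd2 to 1.71 against Cavin2, beside 56.2% of all genes that differed. The exception was Cavin3, with -0.11 and an adjusted exact p of 0.326. From Shh to Wnt it fell relative to all 8, by -2.74 against Cav2 to -3.66 against Cavin2, beside 99.4% of all genes.

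Within groups, most pairs of the 9 genes correlated positively across arrays. Of 36 pairs among the 9 genes in each group, 33 correlated positively in Shh, 33 in Wnt and 23 in hindbrain, with a median Pearson's r of 0.505, 0.543 and 0.318. After adjustment over the pairs of all 3 groups together, 9 pairs passed the exact permutation test of r, 5 in Shh, 3 in Wnt and 1 in hindbrain. Pairs share arrays, so array-wide shifts such as those of the endothelial markers enter every one of them. The share of positive pairs among other genes was not computed, so these counts have no background. In Wnt, the r of Mfsd2a with the caveolar genes lay between percentile 36.1 (Cavin2) and 95.4 (Cavin1) of its r with all genes.

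Cav2 and Cavin1, the caveolin and the cavin, passed in both tumours. Their r was 0.937 in Shh (Spearman's rho 0.929, adjusted exact p of r 0.0321, r 0.889 without the 2 arrays farthest from the median of Cav2) and 0.937 in Wnt (rho 0.810, adjusted exact p 0.0321, r 0.876 without those 2). Mfsd2a correlated in Shh with Cav2 (r 0.934, rho 0.952, adjusted exact p 0.0321, r 0.904 without 2 arrays) and with Cavin1 (r 0.932, rho 0.976, adjusted exact p 0.0321, r 0.945 without 2 arrays). Across the same Shh arrays the endothelial marker mean had r 0.884 with Mfsd2a (rho 0.810, adjusted exact p 0.100), 0.840 with Cav2 (rho 0.738, adjusted exact p 0.112) and 0.935 with Cavin1 (rho 0.881, adjusted exact p 0.0724), and its part in these relations was not tested. Cavin3 and Ehd2 passed in hindbrain (r 0.895, rho 0.905, adjusted exact p 0.0321, r 0.826 without 2 arrays) and in Wnt (r 0.900, rho 0.857, adjusted exact p 0.0423, r 0.868 without 2 arrays). Cav1 and Ehd2 passed in Wnt (r 0.924, rho 0.833, adjusted exact p 0.0321), with r at 0.686 without 2 arrays. Cavin1 passed in Shh with Ehd2 (r 0.900, rho 0.905, adjusted exact p 0.0321, r 0.826 without 2 arrays) and with Cavin2 (r 0.866, rho 0.881, adjusted exact p 0.0321), the latter at r 0.629 without 2 arrays. Of the rank correlations of these 9 pairs, that of Mfsd2a with Cavin1 in Shh passed the same adjustment (adjusted p of rho 0.0429) and the others lay between 0.0616 and 0.124.

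**Figure D4:**
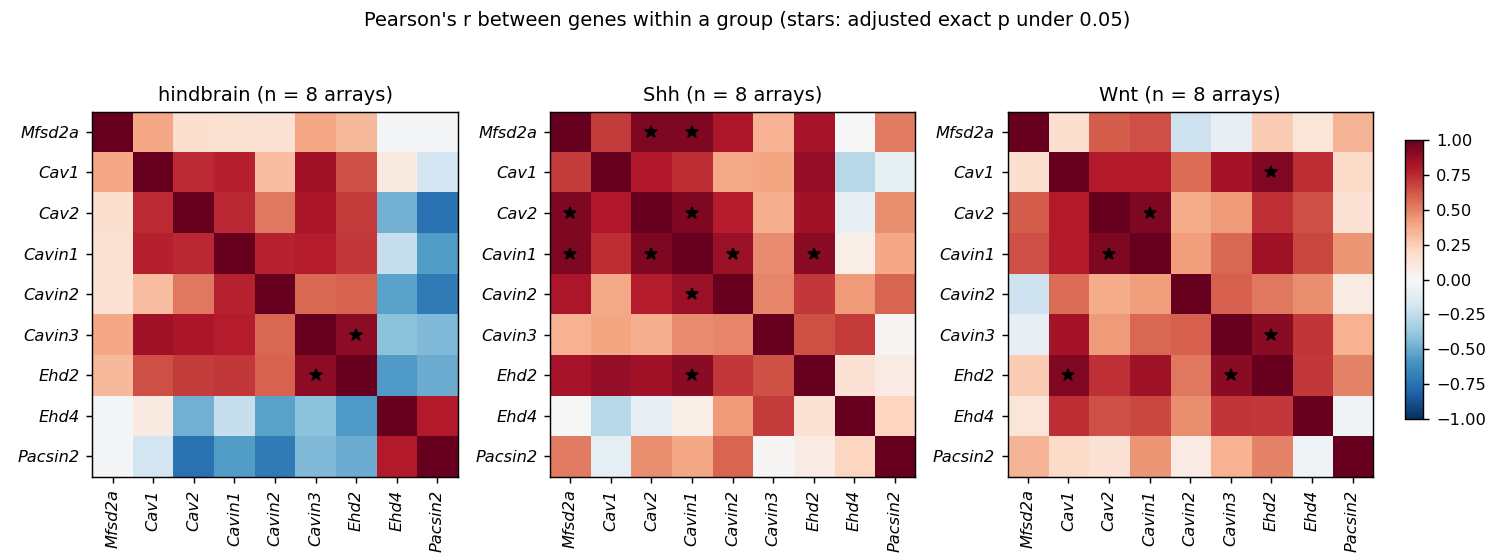
Pearson's r between the 9 genes (both axes) across the 8 arrays of each group, from blue (-1) to red (1), with stars on the 9 pairs whose exact permutation p passed the adjustment over all pairs and groups. The block of Cav1, Cav2, Cavin1 and Ehd2 is red in all 3 groups, and the Mfsd2a row is red for Cav2 and Cavin1 in Shh.

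Mfsd2a was also set against the marker means of each array, among 135 relations of the 9 genes with 5 marker lists in 3 groups. Across the Wnt arrays it correlated with the mean of 7 smooth muscle markers (r 0.986, rho 1, adjusted exact p 0.00335, r 0.977 without the 2 farthest arrays), and the arrays of both stood in the same order. The single genes of the list ran from r 0.141 for Acta2, the smooth muscle actin, to 0.847 for Myl9, a myosin light chain. The relation with the smooth muscle mean was r 0.825 in hindbrain (rho 0.643, adjusted exact p 0.112, r 0.037 without 2 arrays) and r -0.465 in Shh (rho -0.286, adjusted exact p 0.473). In hindbrain Mfsd2a correlated with the mean of 11 pericyte markers (r 0.916, rho 0.833, adjusted exact p 0.0449, r 0.935 without 2 arrays), where Wnt had r 0.381 (rho 0.5, adjusted exact p 0.563) and Shh had r -0.398 (rho -0.286, adjusted exact p 0.527). The rank correlation passed the adjustment with the smooth muscle mean in Wnt (adjusted p of rho 0.0067) and missed it with the pericyte mean in hindbrain (0.148). These differences between groups were not tested. With the endothelial marker mean, the r of Mfsd2a was 0.884 in Shh (rho 0.810, adjusted exact p 0.100, r 0.879 without 2 arrays), 0.258 in hindbrain (rho 0.143, adjusted exact p 0.705) and 0.322 in Wnt (rho 0.452, adjusted exact p 0.621). The Wnt array lowest in Mfsd2a, replicate 6, had an endothelial mean of 10.66, above 5 of the other Wnt arrays, while replicates 8 and 1, lowest in endothelial markers, had Mfsd2a at 8.56 and 8.94.

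**Figure D5:**
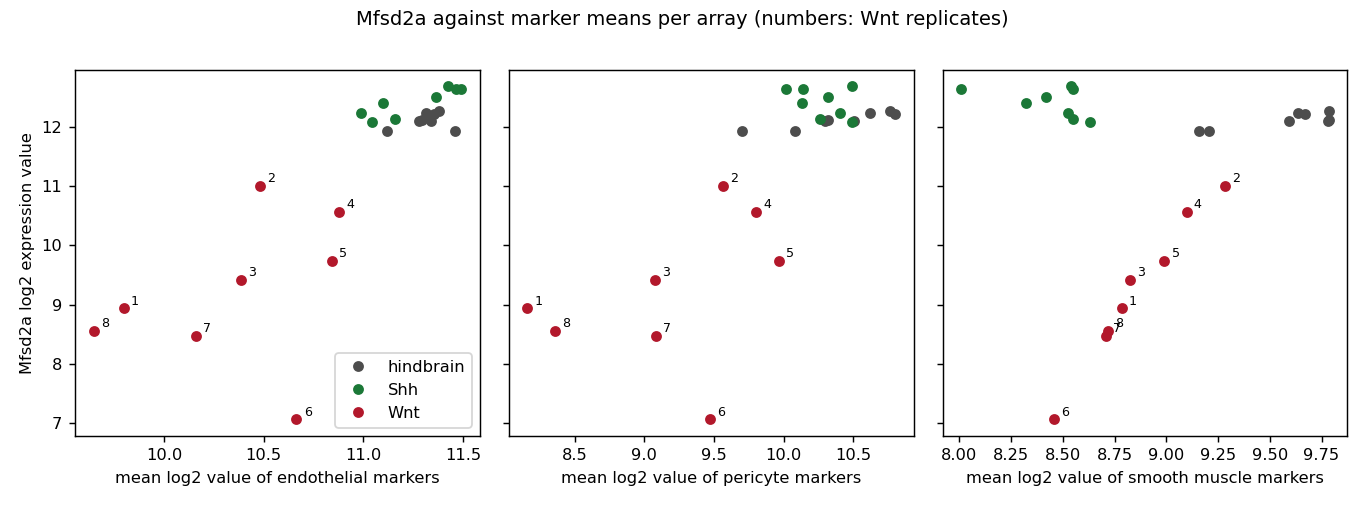
Log2 value of Mfsd2a (vertical axis) against the mean log2 value of endothelial, pericyte and smooth muscle markers (horizontal axes) on each array, coloured by group, with the Wnt arrays numbered by replicate. Across the Wnt arrays r is 0.986 with the smooth muscle mean and 0.322 with the endothelial mean, and replicate 6 is lowest in Mfsd2a at 7.07.

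Among caveolar genes, 3 relations with marker means passed. Cavin1 followed the endothelial mean in hindbrain (r 0.920, rho 0.833, adjusted exact p 0.0449, r 0.679 without 2 arrays), and Ehd2 did so in Shh (r 0.894, rho 0.905, adjusted exact p 0.0449, r 0.905 without 2 arrays). Cav2 followed the mean of 10 fibroblast markers in hindbrain (r 0.950, rho 0.952, adjusted exact p 0.0067, r 0.880 without 2 arrays). The rank correlations of these 3 missed the adjustment (adjusted p of rho 0.148, 0.103 and 0.0770). With the fibroblast mean, Cav2 had r -0.430 in Shh (adjusted exact p 0.506) and r 0.075 in Wnt (adjusted exact p 0.915). The fibroblast list mean was higher in Shh (9.41) and Wnt (10.17) than in hindbrain (8.08), while Cav2 was lower. The part of fibroblasts in the level of Cav2 was not tested. Caveolins and cavins are known from fibroblasts and mural cells as well as from endothelium.

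The genes whose levels were most like those of Mfsd2a over all 24 arrays, among 16498 genes above the control level, were Slc7a1, a cationic amino acid transporter (r 0.983), Spock2, an extracellular proteoglycan (r 0.976), Pglyrp1, a peptidoglycan recognition protein (r 0.968), the solute carrier Slc35f2 (r 0.963) and Cldn5, the tight junction protein of brain endothelium (r 0.962). These r are descriptions in which the 3 groups form separate clusters. After removal of the group means the closest were Slc7a1 (r 0.939), Spock2 (r 0.932), the glucose transporter Slc2a1 (r 0.890), Slc35f2 (r 0.881) and the metal transporter Slc39a8 (r 0.869), so Slc7a1, Spock2 and Slc35f2 were near to Mfsd2a by both measures. The second measure leans on the Wnt arrays, where the SD of Mfsd2a was 1.25, against 0.13 in hindbrain and 0.24 in Shh. Within the Wnt arrays alone r was 0.982 for Slc7a1 and 0.964 for Spock2. Slc7a1 averaged 11.46 on hindbrain arrays, 11.87 on Shh arrays and 9.17 on Wnt arrays. For Cav1 the closest genes over 24 arrays were Cav2 (r 0.946), the microtubule protein Map4 (r 0.944), Cavin1 (r 0.943), the acetyl-CoA carboxylase Acacb (r 0.943) and the sialomucin Podxl (r 0.942). After removal of group means they included the lipid kinase Dgka (r 0.880), Ehd2 (r 0.850), the vascular phosphatase Ptprb (r 0.849) and the sialyltransferase St3gal6 (r 0.847). Between Mfsd2a and Cav1 themselves r was 0.548 over 24 arrays and 0.209 without the group means.

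Other caveolar and vesicle genes show what moved beside the 9. Of 17 further caveola genes, 4 were called higher and 5 lower in Wnt against hindbrain, 3 and 4 in Shh against hindbrain, and 5 and 4 in Wnt against Shh. Plvap, which forms the diaphragm of caveolae and fenestrae and is known to be low in mature barrier endothelium, averaged 6.32 ± 0.35 on hindbrain arrays, 7.34 ± 0.99 on Shh arrays and 10.41 ± 0.73 on Wnt arrays. Its log2 change was 4.09 ± 0.34 in Wnt (adjusted p = 4.47e-10) and 1.02 ± 0.34 in Shh (adjusted p = 0.0215). Plvap and Mfsd2a thus moved in opposite directions between Wnt and the other groups, while within the Wnt arrays their r was -0.575 (exact p = 0.135, rho -0.381, r 0.150 without 2 arrays). Nos3, the endothelial nitric oxide synthase that binds Cav1, fell in Wnt by a log2 change of -2.03 ± 0.17 (adjusted p = 2.98e-10), and in Shh its log2 change was -0.25 ± 0.17 (adjusted p = 0.251). The dynamin Dnm3 was lower in Wnt (-3.00 ± 0.27) and in Shh (-0.98 ± 0.27), and the kinase Fyn was higher in both (0.74 ± 0.092 and 0.80 ± 0.092). Cavin4, the muscle cavin, was lower in Shh (-0.72 ± 0.11). Its means were 6.13 in hindbrain, 5.41 in Shh and 5.30 in Wnt, so both tumour means lay close to the control level of 5.24. Flot2, a flotillin of membrane microdomains, was higher in Wnt than in Shh (0.72 ± 0.074).

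Of 18 measured genes of clathrin coats, the other main route of endocytosis, 7 were higher and 8 lower in Wnt against hindbrain, 5 and 4 in Shh against hindbrain, and 2 and 7 in Wnt against Shh. Amph, an amphiphysin, was higher in Wnt (2.19 ± 0.40) and in Shh (1.48 ± 0.40), and the coat adaptor Epn2 was lower in both (-0.90 ± 0.098 and -0.49 ± 0.098). Of 14 measured receptors that carry cargo across the endothelium, 5 were higher and 4 lower in Wnt, and 3 and 3 in Shh. Tfrc, the transferrin receptor, was lower in Wnt (-3.13 ± 0.22) and in Shh (-1.14 ± 0.22), and Igf1r was lower in Wnt (-2.31 ± 0.15). Igf2r rose in both (1.89 ± 0.15 and 0.87 ± 0.15), and the leptin receptor Lepr rose in Wnt (1.39 ± 0.30). Fcgrt, the heavy chain of the neonatal Fc receptor, was lower in Shh (-0.74 ± 0.12). Its means were 11.36 in hindbrain, 10.63 in Shh and 10.47 in Wnt, so Wnt lay below hindbrain as well.

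Mfsd2a brings lysophosphatidylcholine and its fatty acids into the cell, and of 19 measured genes that handle these lipids 7 were higher and 6 lower in Wnt against hindbrain, 9 and 4 in Shh against hindbrain, and 2 and 7 in Wnt against Shh. Fabp5, a fatty acid binding protein, averaged 6.19 on hindbrain arrays, 9.69 on Shh arrays and 12.07 on Wnt arrays, a log2 change of 5.87 ± 0.22 in Wnt (adjusted p = 2.38e-16) and 3.49 ± 0.22 in Shh (adjusted p = 1.35e-11). Fads2, a desaturase of long-chain fatty acid synthesis, was higher in Wnt (1.90 ± 0.20), and the elongase Elovl6 was higher in Shh (2.32 ± 0.14). Both means stood above hindbrain in the other tumour as well. Fads2 averaged 9.93 in hindbrain, 11.22 in Shh and 11.83 in Wnt, and Elovl6 averaged 7.94, 10.26 and 9.65. Lpcat2, an acyltransferase that uses lysophosphatidylcholine, was lower in Wnt (-2.13 ± 0.33) and in Shh (-1.88 ± 0.33), as was the lysosomal phospholipase Pla2g15 (-1.54 ± 0.23 and -1.43 ± 0.23). These lists were read by their counts, beside the share of all genes called above, and nothing particular to them was tested.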

How the data were processed

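Affymetrix array values of 24 samples were used as the authors deposited them, 1 log2 value per probe set and array, a scale read from their range (1.73 to 14.0). Per the submitters' processing notes Partek 6.6 was used, without its role. How probe sets were summarised and normalized is not given in the sources used here. Array medians lay between 5.97 and 6.18, and precision is limited by how many arrays there are. Of 41345 probe sets, 23521 had 1 gene symbol in the platform annotation, which can be old, and 22180 genes were kept, each as its probe set with the highest mean. Probe sets with several symbols (1814) or none were not used. The 9 genes, the gene and marker lists, and the tests were chosen with earlier results of these data known.

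A linear model of the 3 groups was fitted to all genes and arrays with lmFit and eBayes (no trend) of limma 3.58.1 in R 4.3.3, which left 21 residual degrees of freedom, and calls needed a Benjamini-Hochberg adjusted p under 0.05 over all genes, two-sided. Spread and Mfsd2a minus gene were tested by exact permutation (Python 3.11.15, numpy 2.4.6, scipy 1.17.1) on all genes and adjusted over all genes, rather than over the 9 genes as first planned. Correlations within groups used all 40320 pairings, two-sided, adjusted over all pairs in all groups and over 135 marker relations. The fits were tested on simulated data. Named genes are all 9, up to 2 called genes with the largest rise and fall of each list and comparison, Plvap, Nos3, Cdh5 and Eng, and the 5 genes most like Mfsd2a and Cav1 by each measure, passing over genes without a proper name; the text names part of these. A gene named for 1 tumour by this rule can have changed in the other as well. Single genes of the smooth muscle list were named after their values were seen. Alternatives were every probe set, means of probe sets, quantile normalization, a shift of arrays to the same median, dim genes left out, a variance trend, array weights, compared groups alone, a replicate block, endothelial markers as covariate or reference, and each array left out. A fit without Wnt replicates 1 and 8 and the exact test of the Mfsd2a means were chosen after seeing the data. Promoter sequences are from RefSeq (GRCm38.p6).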

Additional observations from a re-analysis of the deposited data

Results flagged for a closer look

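Among 27 sets of 8 arrays (9 genes in 3 groups), 1 held an array far from the rest. Hindbrain replicate 6 had the lowest Cavin3 value of its group, 10.08, and the nearest array had 10.27. The gap was 0.566 of the range of the group, above the limit of 0.526 for 8 samples. Chance gives about 1 such set in 20.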

How the results depend on the processing

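The fall of Mfsd2a from hindbrain to Wnt kept its direction and its call under all 36 alternatives (-3.14 to -1.93), as did that from Shh to Wnt (-3.45 to -2.29). Part of the 36 could not move these log2 changes. Each gene has 1 probe set, so the probe set alternatives leave its values as they are. The variance trend, the replicate block and leaving out an array of the third group can alter the standard error and adjusted p alone. Fitted to the compared groups alone, Mfsd2a was called higher in Shh than in hindbrain (0.30, adjusted p = 0.0167), whereas the other alternatives gave no call (adjusted p up to 0.640). Leaving out each array in turn gave 7 of 9 genes called in Wnt against hindbrain and 6 in Shh against hindbrain each time, and 4 to 7 in Wnt against Shh. Without Wnt replicates 1 and 8 together, Ehd2 (0.27, adjusted p = 0.0156) and Ehd4 (0.49, adjusted p = 0.0082) were called higher in Wnt than in Shh.

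With the medians of the arrays made equal, the median of all genes moved to -0.14 in Wnt and -0.11 in Shh against hindbrain, the share of called genes that were higher went from 51.3% to 34.9% and from 50.1% to 33.4%, and Ehd2 (-0.016) and Ehd4 (-0.065) changed sign in Wnt against hindbrain. Relative to the endothelial markers that share was 96.8% in Wnt against hindbrain, 60.8% in Shh against hindbrain and, between the tumours, 97.9% against 50.3%. On that scale Cavin1 (0.018), Cavin2 (0.023) and Pacsin2 (0.26) changed sign in Wnt against hindbrain, and Cav1 (0.55), Cav2 (0.44), Cavin1 (0.73) and Pacsin2 (0.63) did so in Wnt against Shh, where 9 genes were called (8 higher, 1 lower) in place of 5. With the endothelial mean as covariate, Cav1 (0.45), Cav2 (0.060) and Cavin1 (0.26) changed sign in Wnt against Shh, and Cav1 (-0.47, adjusted p = 0.0597) and Cavin2 (-0.25, adjusted p = 0.430) lost the call in Wnt against hindbrain, where Ehd2 was called (0.51, adjusted p = 6.1e-04). In Wnt against Shh the covariate also removed the call of Pacsin2 (-0.24, adjusted p = 0.280) and gave calls of Ehd2 (0.59, adjusted p = 1.52e-04) and Ehd4 (0.84, adjusted p = 0.0122). The call of Cavin3 in Wnt against Shh was lost with quantile normalization (0.25, adjusted p = 0.0713), the median shift (0.28, adjusted p = 0.0694) and the compared groups alone (adjusted p = 0.0808). Ehd2 was also called there with dim genes left out (adjusted p = 0.0487), and Ehd2 (adjusted p = 0.0453) and Ehd4 (0.40, adjusted p = 0.0362) with array weights. The cause of these changes was not tested.

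Deviations from the group means of same-numbered arrays had correlations from -0.146 to 0.282. Arrays with different numbers were not compared, so this does not settle whether replicate numbers pair the samples. With a replicate block, Mfsd2a in Wnt against hindbrain kept -2.89 (adjusted p = 1.20e-06), Cavin3 in Wnt against Shh lost its call (0.30, adjusted p = 0.0592), no other call of the 9 genes changed, and 9851 genes were called in place of 10040. Leaving out an array changed the sign of Ehd4 in Wnt against hindbrain (range -0.024 to 0.15). The larger spread of Mfsd2a in Wnt than in hindbrain kept its direction (0.66 to 0.93) but lost its adjusted call each time (adjusted p 0.192 to 0.535, a check added after seeing the data). Of the exact tests of spread before adjustment, 13 crossed above 0.05 (Cavin1 in Shh and Ehd4 in Wnt against hindbrain) and 13 crossed below. It also turned small differences in spread, in mean absolute deviation, of Cav2 (-0.00064 to 0.084) and Pacsin2 (-0.033 to 0.032) in Wnt against hindbrain, of Cav2 (-0.035 to 0.035) and Cavin3 (-0.0019 to 0.070) in Shh against hindbrain, and of Ehd2 (-0.0079 to 0.045) and Ehd4 (-0.0030 to 0.16) in Wnt against Shh. The 9 genes lay above the control level of 5.24 on all arrays, and the lowest value was 6.80, for Cav1 in Wnt.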

Other observations

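Genes of vesicle fusion and sorting carry any transcytosed cargo between membranes. Of 18 such genes, 1 was called higher and 8 lower in Wnt against hindbrain, beside 23.2% and 22.0% of all genes. In Shh against hindbrain 2 were higher and 6 lower, beside 18.9% and 18.9%, and in Wnt against Shh 8 were lower, beside 17.8%. Rab27a, a GTPase of vesicle secretion, was lower in Wnt by a log2 change of -1.51 ± 0.31 (adjusted p = 2.77e-04) and in Shh by -0.86 ± 0.31 (adjusted p = 0.0329). Rab11a, a GTPase of recycling endosomes, was lower in Wnt (-0.78 ± 0.087, adjusted p = 5.34e-08). Its means were 9.32 in hindbrain, 8.95 in Shh and 8.54 in Wnt. The relative Rab11b was higher in Wnt (0.22 ± 0.052, adjusted p = 0.00131) and in Shh (0.16 ± 0.052, adjusted p = 0.0167). Stx6, a fusion protein of the trans-Golgi network, was higher in Shh (0.61 ± 0.070, adjusted p = 2.46e-07).

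Sterol genes are of interest beside caveolae because caveolar membrane is rich in cholesterol. Of 17 measured sterol genes, 4 were higher and 8 lower in Wnt against hindbrain, 1 and 5 in Shh against hindbrain, and 4 and 6 in Wnt against Shh, beside 45.3%, 37.8% and 35.8% of all genes called in either direction. Abca1, which exports cholesterol from the cell, averaged 9.38 on hindbrain arrays, 11.21 on Shh arrays and 10.27 on Wnt arrays, a log2 change of 1.83 ± 0.10 in Shh (adjusted p = 1.7e-12) and 0.90 ± 0.10 in Wnt (adjusted p = 6.83e-08). Insig1, which holds back sterol synthesis and is itself a sterol-regulated gene, was lower in Wnt (-1.53 ± 0.15, adjusted p = 8.1e-09) and in Shh (-1.20 ± 0.15, adjusted p = 1.01e-06). Hmgcs1, an early enzyme of cholesterol synthesis, was higher in Wnt (0.60 ± 0.14, adjusted p = 0.00123).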
